A study of Oryza sativa with 12 samples.

Results

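XTH8 of rice encodes a xyloglucan endotransglucosylase/hydrolase, an enzyme of the growing cell wall, and is 1 gene among 37830 reference genes and 112071 features measured. It was taken as the row that carries the symbol XTH8 (OS08G0237000). Its companions were chosen by their measured values, as the reference genes whose level followed that of XTH8 most closely over the 12 libraries. RNA was sequenced from seedlings of the rice cultivar ZH11, 14 days old and grown on 1/2 MS medium with 12 h of light a day, in 4 groups of 3 libraries. The groups were pkg seedlings given 10 µM Br-cGMP for 5 h, pkg seedlings left without it, wild type seedlings given the same treatment, and wild type seedlings left without it. Br-cGMP is an analogue of cyclic GMP. The pkg line is labelled PKG-/-, and PKG is a cGMP-dependent protein kinase tied by the series title to gibberellin signalling and to GAMYB, a transcription factor. How the mutation was made, and whether the pkg seedlings come from 1 line, is not stated in the labels. The tissue is labelled as seedling, so no organ or cell type was resolved.

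Xyloglucan is a wall polysaccharide that binds cellulose. Enzymes of the XTH family cut a xyloglucan chain and join the cut end to another chain, or hydrolyse it, and so let walls be remodelled while cells enlarge. Grass walls hold little xyloglucan and much mixed-linkage glucan, yet rice keeps a large XTH family. In rice, XTH8 is known as a gene induced by gibberellin whose transcripts are found in leaf sheaths and other elongating tissue. The study asks what Br-cGMP and the pkg mutation change, and for XTH8 the comparisons read how its transcript stood in the mutant, under the nucleotide, and under both.

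XTH8 lies on the plus strand of chromosome 8 from 8328017 to 8329241, in coordinates of a genome build the labels do not name, and its counted length was 1127 bases. An added feature of the files overlaps it on the minus strand from 8328108 to 8328621 and was listed at 0 in all 12 libraries. How reads shared by similar members of the XTH family were assigned is not stated in the labels. All levels below are FPKM, reads scaled to feature length and library depth, as the authors deposited them, and the unit was read from the structure of the values because no label states it. XTH8 was abundant, at a mean of 569 FPKM over the 12 libraries, which put it at place 161 among the 37830 reference genes by mean level. The reads recovered from the deposited values numbered 6667261 to 9438909 per library, of which 1424 to 8990 fell on XTH8. Counting error for XTH8 was thus 1.05% to 2.65% of its level, far under the spread between replicates, which was 18.2% to 46.4% of the group mean.

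By group mean, XTH8 was lowest in pkg seedlings under Br-cGMP and highest in wild type seedlings under Br-cGMP. The size of the gap between the 2 pkg groups rested largely on 1 library, pkg Br-cGMP 3. The level of XTH8 was 445, 326 and 159 FPKM in pkg Br-cGMP libraries 1, 2 and 3, and 415, 252 and 540 FPKM in pkg control libraries 1, 2 and 3. It was 1066, 738 and 901 FPKM in wild type Br-cGMP libraries 1, 2 and 3, and 847, 469 and 666 FPKM in wild type control libraries 1, 2 and 3. Under Br-cGMP every pkg library was below every wild type library, whereas without it pkg control 3 stood above wild type control 2 and the groups overlapped. Within pkg, control 2 lay below Br-cGMP 1 and 2, and without pkg Br-cGMP 3 the log2 difference between the pkg groups was -0.01. Over both treatments the 6 pkg libraries ran from 159 to 540 FPKM with a median of 371, and the 6 wild type libraries from 469 to 1066 FPKM with a median of 793. In whole seedlings, fewer cells that express XTH8 and less XTH8 RNA per cell cannot be told apart.

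**Figure D1:**
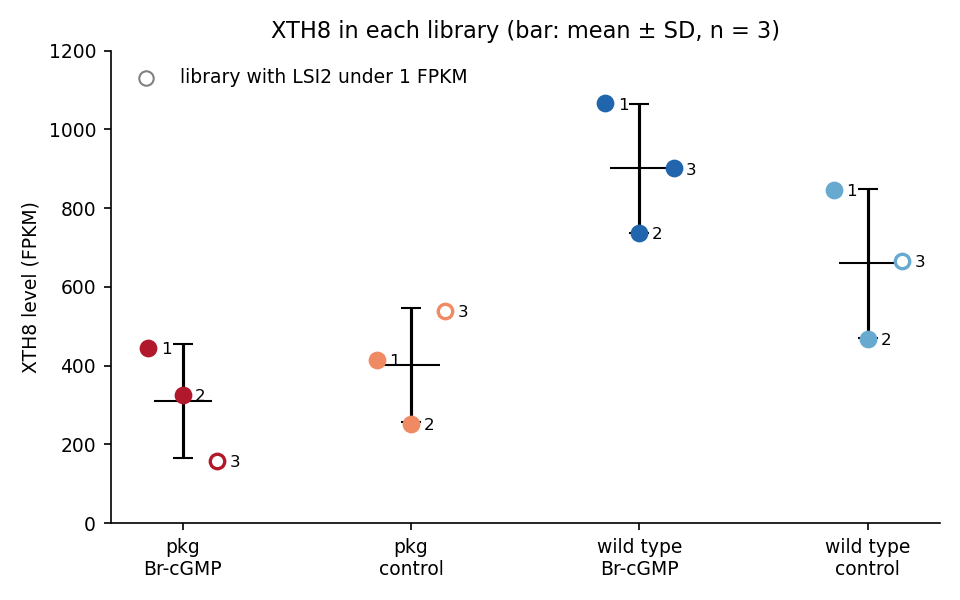
XTH8 level in FPKM (vertical axis) in each library of the 4 groups (horizontal axis). Points are libraries with their replicate number, bars are mean ± SD with n = 3, and open points are the 3 libraries with LSI2, a silicon transporter gene of roots, under 1 FPKM. All 3 pkg Br-cGMP libraries sit at or below 445 FPKM and all 3 wild type Br-cGMP libraries at or above 738 FPKM.

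The group means were 310 ± 144 FPKM in pkg Br-cGMP, 402 ± 144 in pkg control, 902 ± 164 in wild type seedlings given Br-cGMP and 661 ± 189 in wild type control (SD, n = 3 each). In the order of the means, wild type Br-cGMP led wild type control by 241 FPKM and wild type control led pkg control by 258 FPKM. Each of these steps was larger than the larger SD of its pair, 189 FPKM, but the libraries of neighbouring groups overlapped in both. The last step, of 92.3 FPKM between pkg control and pkg Br-cGMP, was smaller than their SD.

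Differences were fitted with limma on log2(FPKM + 1) over 25238 features, so all differences below are log2 units with their standard error, and a feature counts as called at an adjusted p under 0.05 over all features. XTH8 was singled out with earlier results of these data known, so its p-values describe it and are no independent evidence. Under Br-cGMP, XTH8 differed by -1.64 ± 0.40 between pkg and wild type (adjusted p = 0.236), a level 3.12-fold lower in pkg. It was not called, while 0.341% of features were called in that comparison. Features whose 3 pkg libraries all lay below the 3 wild type libraries made up 6.65% of those tested, and XTH8 was one of them. Leaving out pkg Br-cGMP 3, the library with the lowest XTH8 level, brought the difference to -1.22 (adjusted p = 0.57), and leaving out pkg Br-cGMP 1 brought it to -1.96 (adjusted p = 0.0669).

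Without Br-cGMP the difference between pkg and wild type had the same sign and was smaller, at -0.74 ± 0.40 (adjusted p = 0.947, with 0.341% of features called). This comparison shares no library with the previous one. The effect of Br-cGMP was 0.47 ± 0.40 in wild type seedlings (adjusted p = 0.899) and -0.43 ± 0.40 in pkg seedlings (adjusted p = 1.0). The percentage of features called was 0.0% for both of these effects, with 1346 features at an unadjusted p under 0.05 in wild type and 685 in pkg. The value in pkg rested on single libraries, since it was -0.01 without pkg Br-cGMP 3 and -0.18 without pkg control 3. The test of whether the response differed between genotypes gave an interaction of -0.90 ± 0.57 (adjusted p = 0.9999, with 0.00396% of features called), and -0.48 without pkg Br-cGMP 3. The 4 comparisons share groups in pairs, so their values are not independent of each other.

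**Figure D2:**
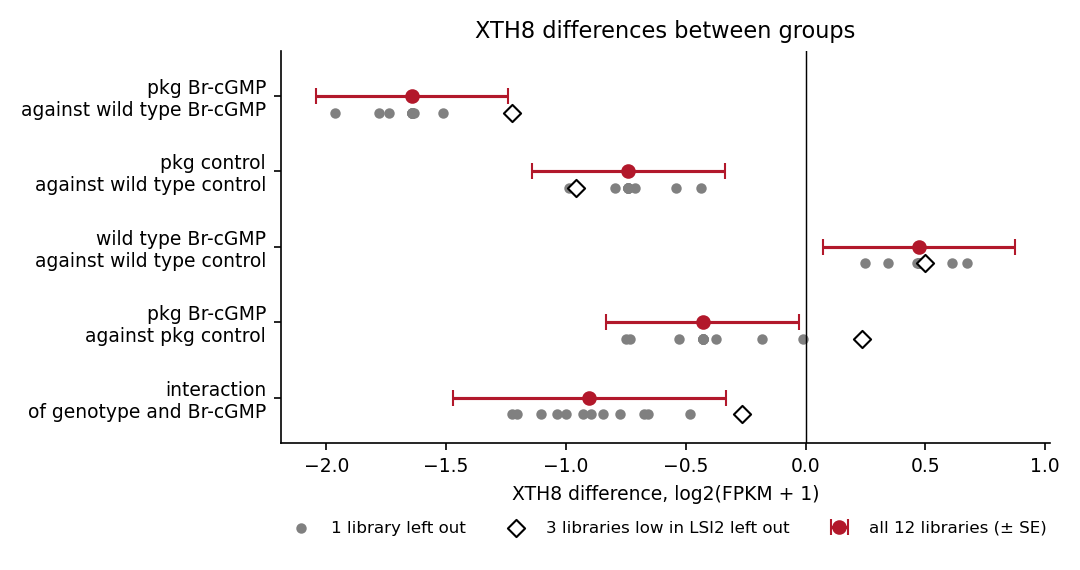
Difference of XTH8 on the log2(FPKM + 1) scale (horizontal axis) in 5 comparisons (vertical axis). Filled points with bars are the difference ± SE with all 12 libraries, grey points leave out 1 library each, and diamonds leave out the 3 libraries low in LSI2. The differences between pkg and wild type stay below 0 in these fits, and the diamond for pkg Br-cGMP against pkg control lies above 0, at 0.24.

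The genes most like XTH8 were then ranked by Pearson's r of log2(FPKM + 1) with XTH8 over the 12 libraries, among 8273 reference genes with a mean of at least 5 FPKM. Because the ranking chooses them by this value, r describes these libraries and is given with no test. The 12 points share libraries and groups. High values were not rare, since 94 genes (1.14%) had an r of 0.9 or more, and the median r was 0.02. The 10 highest ran from 0.97 to 0.94, and the 11th was 0.94 as well, so no gap marks the end of the group. Only 2 of the 10 carry a symbol in the files, and both encode catalytic subunits of cellulose synthase.

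CESA8 (OS07G0208500, chromosome 7, 5852783 to 5858718), a cellulose synthase of growing primary walls in rice, held the third place with an r of 0.96 and a Spearman rho of 0.97. Its level was 151, 75.9 and 34.05 FPKM in pkg Br-cGMP libraries 1, 2 and 3, and 108, 78.4 and 160 FPKM in pkg control libraries 1, 2 and 3. It was 221, 166 and 214 FPKM in wild type Br-cGMP libraries 1, 2 and 3, and 220, 144 and 177 FPKM in wild type control libraries 1, 2 and 3. As for XTH8, pkg Br-cGMP 3 was the lowest library, pkg control 3 was the highest pkg library, and the groups given Br-cGMP did not overlap.

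CESA7 (OS10G0467800, chromosome 10, 17262050 to 17266561), a cellulose synthase of thickened secondary walls, held the seventh place with an r of 0.95 and a rho of 0.94. Its level was 17.8, 5.55 and 3.01 FPKM in pkg Br-cGMP libraries 1, 2 and 3, and 11.8, 6.38 and 21.2 FPKM in pkg control libraries 1, 2 and 3. It was 28.3, 31.4 and 23.7 FPKM in wild type Br-cGMP libraries 1, 2 and 3, and 27.1, 15.5 and 21.5 FPKM in wild type control libraries 1, 2 and 3. Its lowest wild type library was again control 2, and its highest pkg library was again control 3.

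The closest gene of all was OS09G0248100 (chromosome 9, 3654992 to 3658609), for which the files give no symbol, with an r of 0.97 and a rho of 0.97. It stood at 34.4, 28.3 and 5.31 FPKM in pkg Br-cGMP libraries 1, 2 and 3, and at 23.9, 16.5 and 45.8 FPKM in pkg control libraries 1, 2 and 3. It stood at 90.1, 85.7 and 75.5 FPKM in wild type Br-cGMP libraries 1, 2 and 3, and at 66.4, 37.8 and 52.2 FPKM in wild type control libraries 1, 2 and 3. OS02G0708400 (chromosome 2, 29287709 to 29291570), also without a symbol, came next with an r of 0.97 and averaged 56.1 ± 33.8 FPKM in pkg Br-cGMP, 67.3 ± 21.4 in pkg control, 141 ± 27.5 in wild type under Br-cGMP and 112 ± 37.4 in wild type control (SD, n = 3 each). The other 6 genes of the first 10 have no symbol and had means between 5.06 and 341 FPKM and an r from 0.94 to 0.96.

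The r of the first 10 was also computed over parts of the same 12 libraries. These values come from the data that chose the genes and are a description, with no independent support in them. With the group means removed, their r with XTH8 was 0.84 to 0.95, and it was 0.88 to 0.98 over the 6 pkg libraries and 0.70 to 0.93 over the 6 wild type libraries. Without the 2 libraries farthest from the median of XTH8, wild type Br-cGMP 1 and pkg Br-cGMP 3, it was 0.90 to 0.97. All 10 had their lowest group mean in pkg Br-cGMP, their highest in wild type under Br-cGMP and their lowest single value in pkg Br-cGMP 3. Among the first 50 genes, 49 had their lowest mean in pkg Br-cGMP and 42 their highest in wild type Br-cGMP, and 48 had their lowest value in pkg Br-cGMP 3. These counts restate what the ranking chose. The identity of the first 10 was less firm than their r, since leaving out 1 library kept 5 to 9 of them, and with the group means removed 3 stayed among the first 10.

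Among the first 50 genes, 7 carry a symbol (14%), against 10.4% of all ranked genes. Besides CESA8 and CESA7, these include GER3, which encodes a germin-like protein of the cell wall space. It stood at place 12 and averaged 6.97 ± 4.59 FPKM in pkg Br-cGMP, 9.02 ± 2.65 in pkg control, 27.3 ± 11.8 in wild type under Br-cGMP and 19.3 ± 0.421 in wild type control (SD, n = 3 each). The 6 pkg libraries held GER3 at 2.28 to 11.6 FPKM and the 6 wild type libraries at 18.98 to 40.9 FPKM, so the genotypes did not overlap. Of all features tested, 0.792% had all 6 pkg libraries below all 6 wild type libraries, though GER3 was picked for its likeness to XTH8. BC1L4, which encodes a COBRA-like protein of a family that acts in cellulose deposition, stood at place 15 with 6.37 ± 5.03 FPKM in pkg Br-cGMP, 9.42 ± 6.09 in pkg control, 15.5 ± 3.33 in wild type under Br-cGMP and 14.1 ± 2.63 in wild type control.

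GLU2, an endoglucanase gene, stood at place 19 with an r of 0.93 and a rho of 0.97. Its level was 238, 94.4 and 83.0 FPKM in pkg Br-cGMP libraries 1, 2 and 3, and 196, 140 and 240 FPKM in pkg control libraries 1, 2 and 3. It was 382, 276 and 335 FPKM in wild type Br-cGMP libraries 1, 2 and 3, and 378, 248 and 317 FPKM in wild type control libraries 1, 2 and 3. All 6 pkg libraries of GLU2 lay below all 6 wild type libraries, as for 0.792% of features, though GLU2 was picked for its likeness to XTH8. LAC4, a laccase gene of a family that polymerises lignin, stood at place 35 and averaged 12.5 ± 14.4 FPKM in pkg Br-cGMP, 20.4 ± 16.8 in pkg control, 49.6 ± 11.6 in wild type under Br-cGMP and 48.5 ± 8.17 in wild type control. IAA21, which encodes an Aux/IAA repressor of the auxin response, stood at place 44 with 271 ± 198 FPKM in pkg Br-cGMP, 402 ± 166 in pkg control, 686 ± 121 in wild type under Br-cGMP and 612 ± 244 in wild type control (SD, n = 3 in each group).

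**Figure D3:**
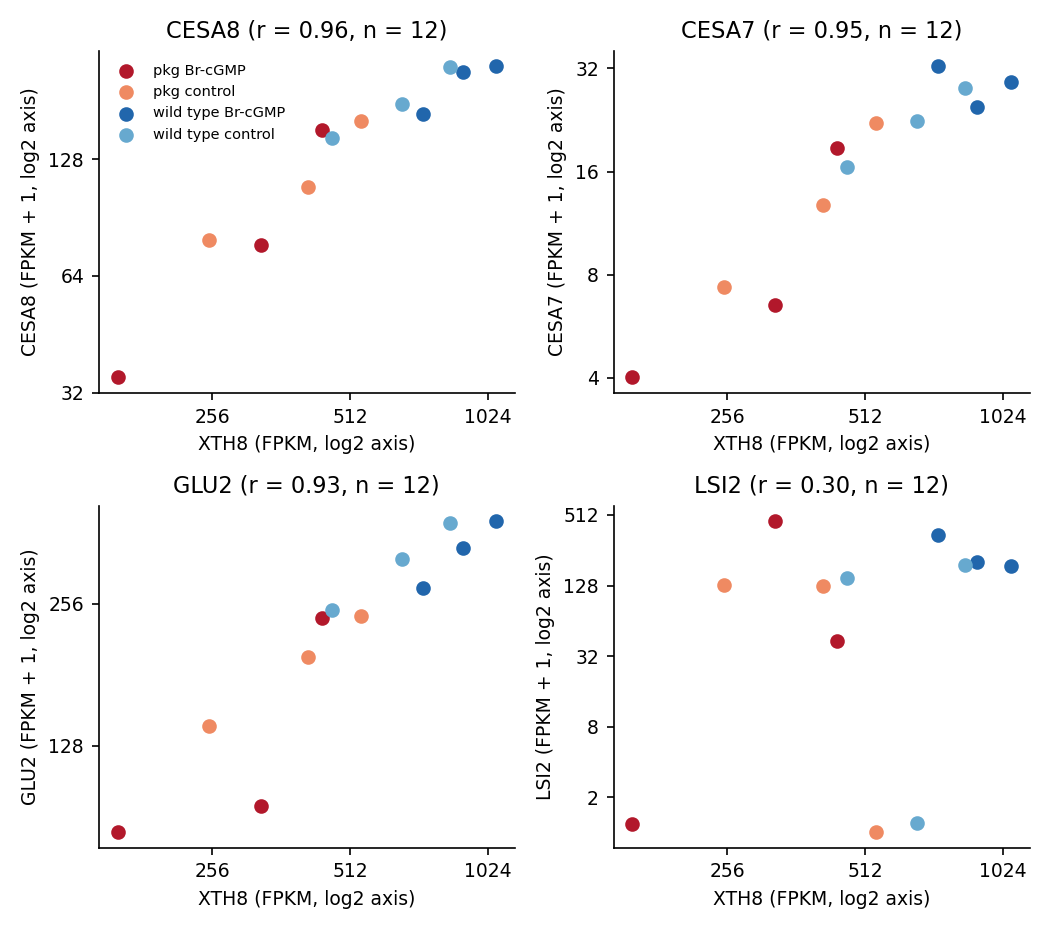
Level of CESA8, CESA7, GLU2 and LSI2 (vertical axes, FPKM + 1, log2 scale) against XTH8 (horizontal axes, FPKM, log2 scale) in the 12 libraries, coloured by group. CESA8, CESA7 and GLU2 climb with XTH8, with pkg Br-cGMP libraries at the lower left, while LSI2 forms 2 clouds and 3 libraries near 1 on its axis have XTH8 at 159, 540 and 666 FPKM.

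Other wall genes followed XTH8 to very different degrees. All 3 secondary wall cellulose synthases were close to it: besides CESA7, CESA4 stood at place 57 with an r of 0.92 and CESA9 at place 73 with an r of 0.91. These 3 enzymes work as 1 complex. CESA4 was at 26.0, 6.78 and 5.42 FPKM in pkg Br-cGMP libraries 1, 2 and 3, against 40.3, 34.2 and 31.7 FPKM in wild type Br-cGMP libraries 1, 2 and 3. CESA9 was at 34.8, 8.13 and 7.94 FPKM in pkg Br-cGMP libraries 1, 2 and 3, against 55.4, 47.1 and 41.2 FPKM in wild type Br-cGMP libraries 1, 2 and 3. In both genes pkg Br-cGMP 1 lay far above the other pkg Br-cGMP libraries, which XTH8 showed less sharply. Without Br-cGMP the genotypes overlapped in both genes. CESA4 was at 11.8 to 28.1 FPKM in pkg control and 23.2 to 32.1 FPKM in wild type control. CESA9 was at 14.6 to 36.6 FPKM in pkg control and 27.4 to 47.6 FPKM in wild type control.

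Of the 6 primary wall synthases listed, 3 were ranked. Besides CESA8, CESA6 had an r of 0.85 and CESA5 an r of 0.84, at places 226 and 268, both under that of CESA8. CESA3 averaged 0.641 FPKM, CESA1 0.008 FPKM and CESA2 0.004 FPKM, and these were not ranked. CESA6 had an r of 0.89 over the 6 pkg libraries and 0.11 over the 6 wild type libraries, and CESA5 had 0.96 in pkg and -0.25 in wild type. CSLF6, the main synthase of mixed-linkage glucan, stood at place 76 with an r of 0.91, averaging 33.0 ± 29.7 FPKM in pkg Br-cGMP, 55.1 ± 31.4 in pkg control, 78.4 ± 4.30 in wild type under Br-cGMP and 82.2 ± 23.4 in wild type control (SD, n = 3 each). The other members of the CSL list with a mean of at least 5 FPKM reached an r of 0.52 at most, and CSLE1 had the lowest at -0.69. CSLC7, of the family that makes the xyloglucan backbone, had an r of 0.62 at place 1106 and 8.88 ± 3.98 FPKM in pkg Br-cGMP, 9.84 ± 1.94 in pkg control, 11.6 ± 3.06 in wild type under Br-cGMP and 13.6 ± 1.22 in wild type control.

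Expansins, which loosen walls without cutting them, were less like XTH8. Of 42 expansin genes listed, 12 were at 0 in all libraries and 11 had a mean of at least 5 FPKM, and the r of these 11 ran from -0.30 to 0.81 with a median of 0.49. The highest was EXPB4, at place 363, with 43.0 ± 25.0 FPKM in pkg Br-cGMP, 83.0 ± 41.2 in pkg control, 121 ± 43.4 in wild type under Br-cGMP and 120 ± 65.3 in wild type control (SD, n = 3 each). The most abundant expansin, EXPB3, had an r of 0.55, and EXPB8 and EXPB6 had 0.49 and 0.69. Over the 6 pkg libraries the r of EXPB4 was 0.93 and that of EXPB3 0.67, and over the 6 wild type libraries they were 0.10 and -0.12. No other gene of the XTH family could be read by symbol, as XTH8 alone carries one in the files.

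**Figure D4:**
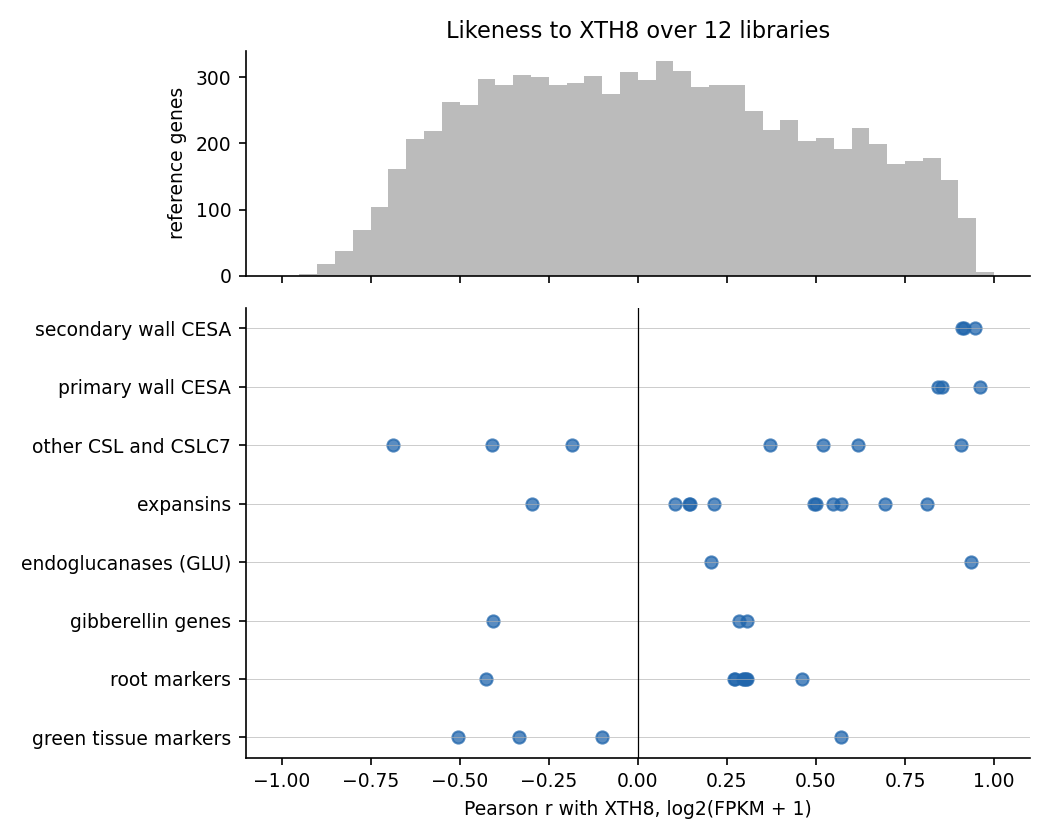
Upper panel, number of reference genes (vertical axis) by Pearson r with XTH8 over 12 libraries (horizontal axis). Lower panel, 1 point per gene with a mean of at least 5 FPKM in each gene list. The secondary wall cellulose synthases sit at 0.91 to 0.95 and the primary wall ones at 0.84 to 0.96, while expansins spread from -0.30 to 0.81 and root markers from -0.43 to 0.46.

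The wall lists were also read in the fit across all features. Of 80 wall genes other than XTH8, 47 passed the filter on low values of 1 FPKM in 3 libraries. None of the 47 was called by limma in any of the 5 comparisons, where at most 0.341% of all features were called. In pkg against wild type under Br-cGMP, 8 of them had an unadjusted p under 0.05 (9.47% of all features did), 40 were below 0 and 7 above, and their median was -0.70 against -0.02 over all 25238 features. All 3 pkg libraries lay below all 3 wild type libraries for 8 of the 47 (6.65% of all features) and above them for 2 (6.65%). In pkg against wild type without Br-cGMP, 33 were below 0 and 14 above, with a median of -0.26 against -0.01 over all features. In wild type under Br-cGMP, 32 were above 0 and 15 below (median 0.29, all features -0.01), and in pkg under Br-cGMP 18 were above and 29 below (median -0.14, all features -0.01). Without Br-cGMP, 4 of the 47 lay wholly below wild type in pkg (5.44% of all features) and 1 wholly above (5.27%). Under Br-cGMP in wild type, 0 lay wholly below the control (4.86%) and 7 wholly above (8.88%), and in pkg there were 0 of either kind (2.41% and 2.71%). At an unadjusted p under 0.05 there were 0, 5 and 1 of the 47 in these 3 comparisons, where all features gave 5.22%, 5.33% and 2.71%, and 0 for the interaction, where they gave 2.07%. Without pkg Br-cGMP 1 the calls over all features were 200 (0.81%) in pkg against wild type under Br-cGMP, against 86 with all libraries, and 4 wall genes were called lower in pkg: CESA4 at -2.36 ± 0.33 (adjusted p = 0.0182), GLU2 at -1.88 ± 0.27 (adjusted p = 0.0197), CESA9 at -2.43 ± 0.36 (adjusted p = 0.0233) and CESA7 at -2.48 ± 0.44 (adjusted p = 0.0414). With all libraries these differences were -1.71 ± 0.49, -1.40 ± 0.37, -1.76 ± 0.52 and -1.86 ± 0.54, at an adjusted p from 0.293 to 0.346. In all 4 genes pkg Br-cGMP 1 was the highest library of its group, so leaving it out had to widen the difference. No other fit that left out 1 library called a wall gene. CESA7 and GLU2 are also among the genes ranked as most like XTH8, so these calls are no independent support.

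Since XTH8 is known as a gibberellin-induced gene, the gibberellin genes were read beside it. Of 11 listed, 3 had a mean of at least 5 FPKM. None of the 4 tested was called in any comparison, where at most 0.341% of all features were called, so this count says little about 4 genes. SLR1, the DELLA repressor of gibberellin responses, had an r of 0.28 with XTH8, GID1, the gibberellin receptor, had -0.41, and CYP714D1, an enzyme that inactivates gibberellins, had 0.31. SLR1 differed between pkg and wild type by -0.13 ± 0.26 under Br-cGMP, where XTH8 differed by -1.64 ± 0.40. In the same comparison GID1 differed by 0.02 ± 0.21, CYP714D1 by -1.26 ± 1.16 and CYP714C2, the fourth gene tested, by -0.35 ± 0.42. GAMYB, the transcription factor of the series title, was at 1.17 ± 0.705 FPKM in pkg Br-cGMP, 0.629 ± 0.141 in pkg control, 0.7 ± 0.221 in wild type under Br-cGMP and 0.84 ± 0.517 in wild type control (SD, n = 3 each). This was too low for a place in the ranking, and GAMYB was not among the genes tested with limma.

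Organ content of the libraries was read from marker genes. The 12 root markers summed to 90.1 to 7775 FPKM in pkg Br-cGMP, 53.2 to 3742 in pkg control, 3264 to 8586 in wild type under Br-cGMP and 67.6 to 3654 in wild type control. None of the 12 was at 0 in every library. LSI2, a silicon transporter gene of roots, was at 0.181 FPKM in pkg Br-cGMP 3, 0.0 in pkg control 3 and 0.196 in wild type control 3, and at 41.7 to 452 FPKM in the other 9 libraries. XTH8 was at 159, 540 and 666 FPKM in those 3 libraries, the lowest pkg Br-cGMP value, the highest pkg control value and the middle wild type control value. Under Br-cGMP, 8 of the 10 root markers tested had a difference below 0 between pkg and wild type (median -1.36), as did 13065 of all 25238 features. None of the 10 was called by limma (0.341% of all features were) or had an unadjusted p under 0.05 (9.47%). None had groups that did not overlap (6.65% of all features lower in pkg and 6.65% higher). With shares this low, such counts over 10 genes say little about root content. Without the 3 libraries XTH8 differed by -1.22 ± 0.35 between pkg and wild type there (adjusted p = 0.63). Without them the effect of Br-cGMP on XTH8 in pkg was 0.24 ± 0.39, of opposite sign to that with all libraries. With the mean of 4 root genes as a covariate the difference between pkg and wild type under Br-cGMP was -1.63 ± 0.45. These 4 were LSI2, NIP2-1, PIP2-3 and OS02G0662000, so the covariate stands for part of the 12 root markers. Among the markers left out of it, MT4C ran from 4.24 to 2725 FPKM in pkg control. PHT1-8 and HMA3, also left out, were at no less than 16.5 and 8.30 FPKM in any library. The r of PHT1-8 with XTH8 was -0.43.

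The 11 green tissue markers summed to 1511 to 2554 FPKM in pkg Br-cGMP, 966 to 5298 in pkg control, 905 to 1921 in wild type under Br-cGMP and 1125 to 2163 in wild type control, and 3 of them were at 0 in every library. RBCS, the small subunit of Rubisco, had an r of -0.33 with XTH8, CAO, of chlorophyll b synthesis, had -0.10, and PORA, of chlorophyll synthesis, had 0.57. GLO1, also on the list, had an r of -0.50. PORA differed between pkg and wild type by -1.38 ± 0.52 under Br-cGMP (adjusted p = 0.456) and by -0.76 ± 0.52 without it (adjusted p = 0.947), the same sign as XTH8. It was the only 1 of the 4 green tissue markers tested that was below 0 in either comparison. The other 3 were above 0, and the median of the 4 was 0.43 under Br-cGMP and 0.39 without it. Under Br-cGMP, RBCS differed by 1.06 ± 0.65, GLO1 by 0.65 ± 0.44 and CAO by 0.20 ± 0.35. Beyond the values given here, the part of organ content in the XTH8 differences was not tested. XTH8 had an r of -0.16 and a rho of -0.25 with library depth over the 12 libraries.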

How the data were processed

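Each of the 12 libraries had its own table, and titles gave the groups. The submitters' processing notes list CASAVA 1.8 and HISAT2. A counting program is not given in the sources used here, nor are build and annotation. The authors deposited values already scaled to length and depth, read here as FPKM although no unit is stated: multiplied by feature length, all values above 0 (100%) fell on whole multiples of a step fixed per library (tolerance 0.01), so whole reads could be recovered.

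Differences came from limma 3.58.1 (R 4.3.3) with trended, robust moderation on log2(FPKM + 1), a mean per group and Benjamini-Hochberg adjustment; a feature needed 1 FPKM in 3 libraries. The pseudocount of 1 makes folds of low genes too small. Likeness was Pearson's r, computed in Python 3.11.15 with pandas 2.3.3. The limma step was tested on simulated reads, drawn independently for each feature and library at a single fixed dispersion. Deviations that libraries share across features were not simulated. The p-values reflect variation among libraries that the series calls biological repetitions. Libraries of a group differed by a chi-square per degree of freedom of 18.4 to 65.9, so none repeated another. Alternatives are given at the end.

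The gene, the gene lists and the tests were chosen with earlier results of these data known. Named are XTH8, the 10 most similar genes (identifiers without a symbol only for the first 2), genes with a symbol among the first 50, the most abundant expansins, the cellulose synthases, SLR1, GID1, GAMYB, CYP714D1 and organ markers; CSLF6, CSLE1 and CSLC7 were added after their values were seen. Glutelin genes caught by the symbol pattern for endoglucanases were dropped. Of the 37830 reference identifiers, 1 was found in the RefSeq gene table, so names come from the files.

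Same-numbered pkg Br-cGMP and pkg control libraries deviated together (correlations 0.31 to 0.36 across features), a pairing seen in the data, as the labels give only the number. Both pkg libraries numbered 3 were low in LSI2, as was wild type control 3, which correlated at 0.41 with pkg control 3. The part of root content in these correlations was not tested.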

Additional observations from a re-analysis of the deposited data

How the results depend on the processing

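XTH8 was not called in any of the 5 comparisons under any alternative: filter, pseudocount, rescaling, limma-voom on recovered reads, groups in the fit, replicate block, each library left out, libraries low in LSI2 left out, root covariate and reference genes alone. Its adjusted p ranged over these from 0.0669 to 0.63 for pkg against wild type under Br-cGMP. Leaving out 1 library gave differences from -1.96 to -1.22 there, -0.99 to -0.44 without Br-cGMP, 0.25 to 0.67 for Br-cGMP in wild type, -0.75 to -0.01 for Br-cGMP in pkg and -1.22 to -0.48 for the interaction. The effect of Br-cGMP in pkg turned to 0.24 without the 3 libraries low in LSI2, 2 of which belong to this comparison. With the replicate block the differences are the same by construction (-1.64 and -0.43, for example), with a standard error of 0.36, an adjusted p of 0.181 for pkg against wild type under Br-cGMP, and no call changed; in the comparisons other than Br-cGMP in pkg, same-numbered libraries correlated at -0.15 to 0.41. The count of wall genes called was 0 to 4 with 1 library left out. The only fit that called any gave 4, in pkg against wild type under Br-cGMP without pkg Br-cGMP 1, and called 0.81% of all features there. Of the 10 genes most like XTH8, 4 stayed among the first 10 by Spearman's rho, 3 with group means removed, 2 with the replicate block as well, 4 without the 3 libraries low in LSI2, and 5 to 9 with 1 library left out; the cause was not tested. With 1424 reads or more on XTH8 in every library, its counting error was at most 2.65%, and the part of library depth in its differences was not tested.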
